A study of Mus musculus with 2 samples.

Results

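The genes described here encode the proteins of the cytosolic ribosome. They were taken as protein-coding mouse genes whose symbol is Rpl or Rps followed by a number (with an optional suffix) or by p0 to p2. The rule found 82 of the 43346 genes with an Ensembl identifier, 51 for the large subunit and 31 for the small subunit. The choice used names only and no measured value. Polyadenylated RNA was sequenced from 1 spleen, taken at 10 weeks from a male mouse of the strain C57BL/6J, with no treatment or altered allele named in the labels. There were 2 libraries of this 1 biological replicate, technical replicate 1 and technical replicate 2, the latter dated 2015. Both share the animal and the organ, so the only comparison is replicate 2 over replicate 1, with 1 library on each side and no p-value.

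The ribosome joins a small subunit, which holds the mRNA and reads its codons, to a large subunit, which forms the peptide bonds and releases the new chain through a tunnel. Each particle holds its proteins in roughly equal number, the stalk proteins P1 and P2 excepted. Most mRNAs of these proteins start with a C followed by a run of pyrimidines, the terminal oligopyrimidine tract through which growth signals set their translation together. In the spleen, dividing lymphocytes and erythroid precursors are known for a high demand for ribosomes.

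A pyrimidine run was found in the reference sequence of some member promoters. In the RefSeq promoters of build GRCm38.p6, 62 members were matched. A C at the listed start followed by at least 4 pyrimidines stood in 12 of the 62 (19.4%). It stood in 2.26% of 18850 promoters of all genes and in 2.37% of the 9498 promoters of tested genes. This rule needs a start that is exact to the base, so a member that fails it need not lack the tract. The listed start lay 1425 bases from the GENCODE start for Rps10 and 575 for Rps25. Rpl7a, with a run of 21 pyrimidines, did not meet the rule. A run of at least 8 pyrimidines within 30 bases before to 30 after the start stood in 54.8% of member promoters, 22.2% of all and 21.6% of those of tested genes, read on the sense strand alone. CCGGAAG, searched on both strands over the 300 bases (250 before to 50 after the start), stood in 38.7% of member promoters, 11.6% of all and 19.3% of those of tested genes. GGGCGG stood in 59.7%, above the 45.7% of all promoters and below the 64.5% of tested genes. TATAAA stood in 9.68%, below the 12.7% of all and above the 7.3% of tested genes. CCAAT stood in 29%, 38.1% and 38.6%, and AAGATGGC in 8.06%, 3.19% and 4.91%, in the same order. A match is a description of letters, not of binding. In the examples below the run is in capitals. They are the windows of 60 bases around the start of Rps6 (chr4:86857338-86857397, minus strand), Rps18 (chr17:33955636-33955695, minus), Rps27 (chr3:90213619-90213678, minus), Rpl28 (chr7:4792935-4792994, plus) and Rpl38 (chr11:114668550-114668609, plus), shown as 5 members in which both the start and the run met the rule and the listed start lay within 91 bases of the GENCODE start.
Rps6: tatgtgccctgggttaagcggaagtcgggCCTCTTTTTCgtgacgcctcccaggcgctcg
Rps18: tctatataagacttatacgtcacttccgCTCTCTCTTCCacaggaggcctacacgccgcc
Rps27: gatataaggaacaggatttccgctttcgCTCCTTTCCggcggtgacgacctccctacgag
Rpl28: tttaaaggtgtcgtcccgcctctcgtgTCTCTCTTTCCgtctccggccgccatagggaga
Rpl38: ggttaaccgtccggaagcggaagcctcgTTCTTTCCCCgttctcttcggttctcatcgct

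Transcript assignment is the other result that turns on sequence. In 8 members the transcript with the largest share of the gene in replicate 2, and not in replicate 1, was one that GENCODE release M21 classes as retained intron. Of these 8 transcripts, 7 begin inside an intron and run across its 3′ splice site into the following exon, and 1 (Rpl36a-206) holds a whole intron. Among all 116 transcripts of that class in members, 58 hold a whole intron of the principal transcript. Neither the 8 members nor these structures were counted for all genes, so they are not shown to be particular to ribosomal protein genes. The edges below give 18 intron bases and 12 exon bases (GRCm38), with the AG that ends the intron in capitals. Of the small subunit, 2 are shown, at chr17:24721605-24721634 (plus strand) for Rps2 and chr17:33952580-33952609 (minus) for Rps18. Those of the large subunit lie at chr5:121208373-121208402 for Rpl6, chr5:146835546-146835575 for Rpl21, chr5:107907171-107907200 for Rpl5, chr1:39369996-39370025 for Rpl31 and chrX:134586060-134586089 for Rpl36a, all on the plus strand.
Rps2-205: cctcttactattttacAGctaaggccacct
Rps18-210: ccaaacttttgacctcAGggcgtggggcgg
Rpl6-203: tttgtgtttttcctatAGggcctcttgtca
Rpl21-204: ggtctttgctcattccAGgggcaaaattct
Rpl5-205: tgctttgctttcttccAGatggaggagatg
Rpl31-204: ttgtgttctgaaccttAGgggcttcaagaa
Rpl36a-206: gtacactattcttactAGgtgaacgtgcct

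Replicate 1 held 27528824 expected counts and replicate 2 held 3806381. Library size is therefore scaled, and the scaling decides many directions. Genes were tested from 50 counts in all and a mean of 1 TPM upwards, which left 12467. Their median log2 ratio was -0.27 under TMM (edgeR), -0.14 under DESeq2 size factors, -1.53 under total counts and -2.10 as a ratio of TPM + 1. Markers of B cells, T cells, red pulp macrophages and erythroid cells (4 genes each) all reached 1 TPM in both libraries. Their summed TPM was 2274 and 1106, 254.1 and 36.1, 540.9 and 105.1, and 571.4 and 840.8, in that order. Their median log2 TPM ratios were -1.93, -3.06, -2.88 and -0.53, beside the -2.10 of all tested genes. Both libraries come from 1 spleen, so these sums do not show a difference in its cells. Cell number, RNA per cell and differences between the libraries themselves cannot be told apart here. The part of the marker differences in the results below was not tested. Exocrine pancreas markers reached 1 TPM in 4 of 4 and in 1 of 4 genes, at 39.9 and 4.35 TPM in sum. The liver markers Alb and Apoa1 summed to 0.06 and 0 TPM. Mitochondrially encoded genes held 10.6% and 0.43% of all TPM.

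Ribosomal protein genes took a larger part of replicate 2. They held 1190787 expected counts in replicate 1, or 4.33% of the library, and 624874 in replicate 2, or 16.4%. Per length, they summed to 127256 TPM (12.7%) and 255762 TPM (25.6%). Of the 20 genes with the highest TPM, 2 were members in replicate 1 and 14 in replicate 2. Of the 82 members, 79 were tested, 2 had 0 counts in both libraries and 1 stayed under the count minimum.

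Of the 79 tested members, 68 were higher and 3 lower in replicate 2 under TMM, meaning that the whole 95% counting interval of the ratio lay beyond 1.5-fold. Among all tested genes 28% were higher and 32.6% lower. The median log2 ratio of members was 2.597, with a range from -1.85 to 9.88. Under total counts 51 members were higher and 10 lower, against 14.6% and 58.5% of all tested genes. Under TMM, DESeq2 and total counts together, with TPM moving the same way, 38 members were higher and 2 lower, against 11.8% and 30.5% of all tested genes. As a TPM ratio, 32 members were more than 1.5-fold higher and 31 more than 1.5-fold lower, and their median was -0.03. Read against the median of all tested genes on the same scale, members stood 2.86 above it on the count scales and 2.07 above it in TPM. By subunit, 40 of 48 large and 28 of 31 small subunit genes were higher under TMM, with medians of 2.45 and 2.67, and all 3 lower members belonged to the large subunit. Whether the subunits differ was not tested.

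**Figure D1:**
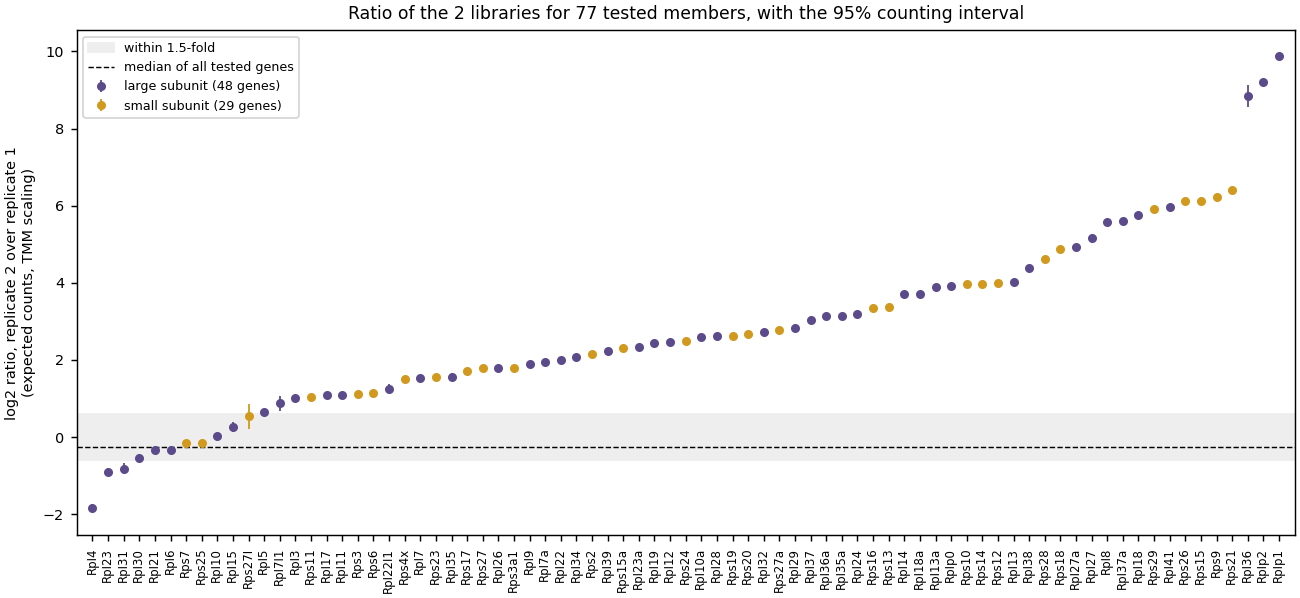
Log2 ratio of replicate 2 over replicate 1 (expected counts, TMM scaling) for 77 tested members in order, with 95% counting intervals and large and small subunit genes in separate colours. Rplp1, Rplp2 and Rpl36 stand apart at the top, and Rpl4, Rpl23 and Rpl31 lie below the grey band of 1.5-fold. The dashed line is the median of all tested genes, -0.27.

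The stalk is the flexible arm of the large subunit that recruits the elongation factors. Rplp1, an acidic protein of the stalk tip, was at 238.5 TPM in replicate 1 and 35577 TPM in replicate 2, from 1388 and 75293 expected counts. Its partner Rplp2 was at 389.9 and 35749 TPM, from 1876 and 63994 counts. Both were among the lower members of replicate 1 (ranks 75 and 71 of 82) and the 2 highest of replicate 2. Their log2 ratios under TMM were 9.88 (95% interval 9.80 to 9.96) and 9.21 (9.14 to 9.28), and both were higher under every scaling. Rplp0, which anchors them to the ribosome, was at 706.9 and 1638 TPM, with a log2 ratio of 3.92 (3.88 to 3.95) and the same direction under every scaling. Rpl12, at the stalk base, was at 2047 and 1911 TPM. Its log2 ratio was 2.45 (2.41 to 2.49) under TMM, while its TPM was slightly lower in replicate 2. Within this 1 structure the tip proteins thus had far larger ratios than the proteins of its base.

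Rpl5 and Rpl11 carry the 5S rRNA into the large subunit and, when unassembled, bind the p53 inhibitor Mdm2. Rpl5 was at 1222 and 408.9 TPM and Rpl11 at 1334 and 619.2 TPM. Both were higher under TMM, at 0.66 (0.59 to 0.73) and 1.10 (1.02 to 1.18), and below 0 under total counts and in TPM. Their ratios lay under the median of members.

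At the tunnel exit, where the new chain emerges, Rpl17, Rpl19, Rpl23a, Rpl26, Rpl35 and Rpl39 were higher under TMM and Rpl31 was lower. All 7 were lower in TPM. Rpl31 went from 1809 to 170.7 TPM (log2 ratio -0.82, -0.96 to -0.68), and Rpl23a from 2775 to 2243 TPM. Rpl17 went from 3489 to 1263 TPM and was below 0 under total counts too. Rpl31 was below 0 on every scale but was not called with DESeq2 size factors, so none of the 7 was called under every scaling.

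Along the mRNA channel of the small subunit, Rps2 and Rps3 line the entry, and Rps14, Rps26 and Rps28 lie at the exit. Rps26 was at 468.7 and 5033 TPM, with a log2 ratio of 6.12 (6.06 to 6.19). Rps14 and Rps28 were at 1023 and 2874, and 886.3 and 3204 TPM. These 3 exit proteins were higher under every scaling, at ratios from 3.96 to 6.12. Rps2 was at 982.1 and 1634 TPM, with a log2 ratio of 2.16 and the same direction under every scaling. Rps3 was at 976.7 and 327.6 TPM, higher under TMM at 1.11 (1.05 to 1.17) but below 0 under total counts and in TPM.

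Other members with known roles split in the same way. Rps6, the target of S6 kinase, was at 2421 and 922.6 TPM; its log2 ratio was 1.14 by TMM and below 0 by total counts and in TPM. Rps19, the gene most often mutated in Diamond-Blackfan anaemia, was at 1284 and 1161 TPM, higher under TMM at 2.62 (2.56 to 2.68) and slightly lower in TPM. From a chosen list of 9 members linked to that anaemia, 8 were higher and 0 lower under TMM, and 3 were higher under every scaling. The list need not be complete, so these counts hold for the 9 alone. Of all 79 tested members 86.1% were higher under TMM and 48.1% under every scaling. Rpl22, which is known for its part in T cell development, was at 1385 and 823.1 TPM, higher under TMM at 2.01 and lower in TPM. Rpl38, which is known for its part in the translation of Hox mRNAs, was at 1745 and 5094 TPM and higher under every scaling at 4.37. Rpl41, the shortest member with 25 amino acids, was at 694.2 and 6395 TPM and higher under every scaling at 5.96.

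The largest ratios after the stalk proteins were those of Rpl36 (25.4 and 1733 TPM, from 104 and 2742 counts), Rps21 (863.0 and 10880 TPM), Rps9 (727.7 and 11817 TPM) and Rps15 (478.4 and 4896 TPM). Rpl36 has 1 transcript in the deposited tables, and its log2 ratio was 8.84 (8.55 to 9.13). It also had the highest GC content of the members, 60.8%. The lowest ratios were those of Rpl4, at 2107 and 105.3 TPM (-1.85, -1.95 to -1.74), and Rpl23, at 2774 and 282.2 TPM (-0.91, upper end of the interval -0.82), the 2 members lower under every scaling. Rpl4 has 1 transcript too, with 49637 and 796 counts. Rpl30, Rpl21 and Rpl6 had ratios of -0.55, -0.34 and -0.33 and were not called.

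**Figure D2:**
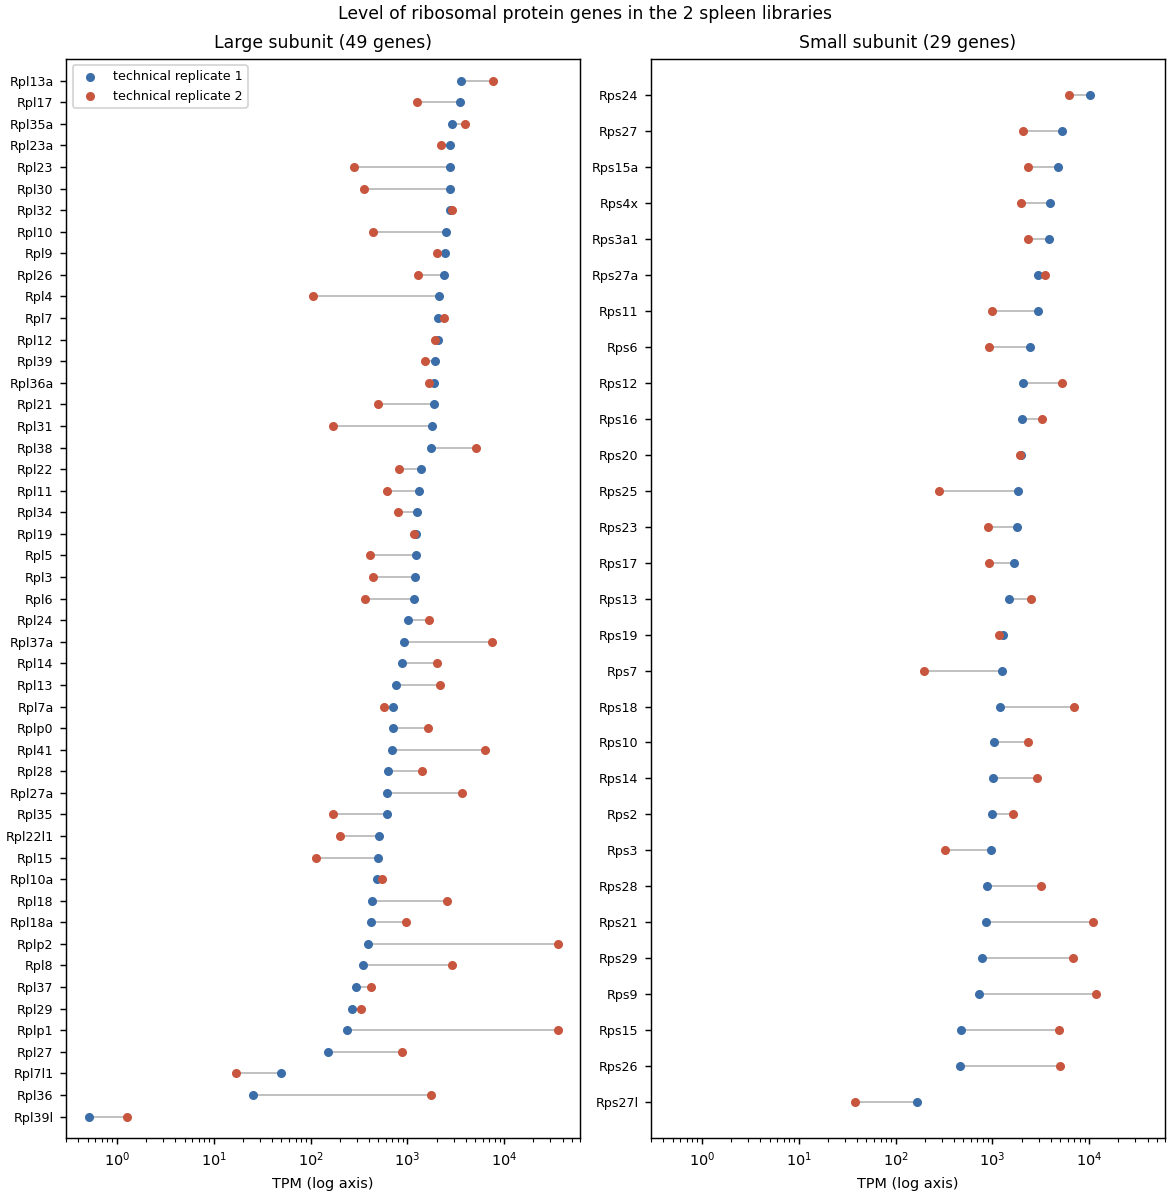
TPM of the members shown on a log axis in technical replicate 1 (blue) and technical replicate 2 (red), large subunit on the left and small subunit on the right, ordered by replicate 1. Rpl10l and Rpl3l, with 0 counts in both libraries, have no point. In replicate 1 most members lie between 100 and 10080 TPM, and in replicate 2 Rplp1 and Rplp2 lie at 35577 and 35749 TPM.

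Of the 7 members whose symbol ending was taken to mark a paralog, Rpl10l, Rpl3l, Rpl39l, Rpl7l1 and Rps27l had the 5 lowest levels of replicate 2. Rpl10l and Rpl3l, known from testis and from striated muscle, had 0 counts in each library, which allows up to 3 counts of the total. Rpl39l, also known from testis, had 6 and 5 counts (0.51 and 1.27 TPM) and was not tested. Rpl7l1 was at 49.9 and 16.9 TPM, Rpl22l1 at 514.2 and 202.2 TPM and Rps27l, a p53 target, at 167.1 and 37.8 TPM. Their parents Rpl7 and Rpl22 were at 2085 and 2402, and 1385 and 823.1 TPM. Rps4x, the X-linked and only Rps4 gene counted here as protein coding, was at 3961 and 1958 TPM, the fourth highest level of replicate 1. It is among the 7 by the x of its symbol alone, so values given without paralog symbols leave out this gene too. By TMM Rpl7l1, Rpl22l1 and Rps4x were higher and Rps27l was not called, and the TPM of each was lower in replicate 2.

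Summed TPM of the subunits was close to equal in replicate 1 and not in replicate 2. The sums run over 51 large and 31 small subunit genes, so equal sums are not equal levels per gene. Large subunit genes summed to 64359 TPM and small subunit genes to 62897 TPM in replicate 1, a ratio of 1.02. In replicate 2 they summed to 149523 and 106240 TPM, a ratio of 1.41. Without Rplp0, Rplp1 and Rplp2 the ratio was 1.00 in replicate 1 and 0.72 in replicate 2. Without the 5 members of highest mean TPM it was 1.25 and 1.01, so the contrast of the sums rests on a few genes. The median gene pointed the other way from the sum in replicate 2. Large subunit genes had a median of 1184 and 1272 TPM, and small subunit genes 1284 and 2316 TPM, which gives ratios of medians of 0.92 and 0.55. In expected counts, which are not per length, the large subunit held 55.7% of the members' counts in replicate 1 (exact 95% interval 55.6 to 55.8) and 58.5% in replicate 2 (58.4 to 58.6). These intervals cover counting error only.

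By the SD, members spread further apart in replicate 2. The SD of log2(TPM + 1) over the 82 members was 2.34 in replicate 1 and 2.73 in replicate 2, and 1.30 and 1.78 over the 75 members without a paralog symbol. Over those 75 the highest TPM was 396.4 times the lowest in replicate 1 and 339.5 times in replicate 2, so the full range did not widen. All tested genes had SDs of 1.83 and 2.11. For large subunit genes without paralog symbols the SD was 1.40 and 1.86, and for small subunit genes 1.05 and 1.52. The 2 highest members held 12.05% of the members' TPM in replicate 1 and 27.9% in replicate 2.

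The order of members was not shared. Rps24, Rps27, Rps15a, Rps4x and Rps3a1 were the 5 highest in replicate 1, at 10080, 5251, 4773, 3961 and 3839 TPM. In replicate 2 they ranked 11, 33, 29, 36 and 27. The 4 highest there were Rplp2, Rplp1, Rps9 and Rps21, which had ranked 71, 75, 56 and 53 in replicate 1. Rpl13a ranked 6 in both, at 3620 and 7669 TPM. Across the 82 members Spearman's rho of TPM between the libraries was 0.16, and Pearson's r of log2(TPM + 1) was 0.63. Without the 7 paralog symbols they were -0.04 and -0.05 over 75 members. These are descriptions across genes of 1 animal, and genes are not independent replicates.

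The level of a member followed its GC content in opposite directions in the libraries. Over the 79 tested members, Spearman's rho of TPM with the GC content of the principal transcript was -0.48 in replicate 1 and 0.30 in replicate 2. The 30 members under 50% GC had a median of 1927 TPM in replicate 1 and 1388 TPM in replicate 2. The 49 members at 50% or over had medians of 1007 and 1911 TPM. The log2 ratio had a rho of 0.54 with GC among members and 0.52 among all tested genes, and of -0.40 and -0.34 with transcript length. Members were shorter than most genes, with a median principal transcript of 751 bases against 2754. Of the 58 members under 1000 bases 53 were higher under TMM, while 47.4% of all 1201 tested genes of that length were. With the GC trend over all tested genes removed, 65 members were higher and 1 lower, against 23.5% and 29.9% of all tested genes, and the median was 2.604.

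**Figure D3:**
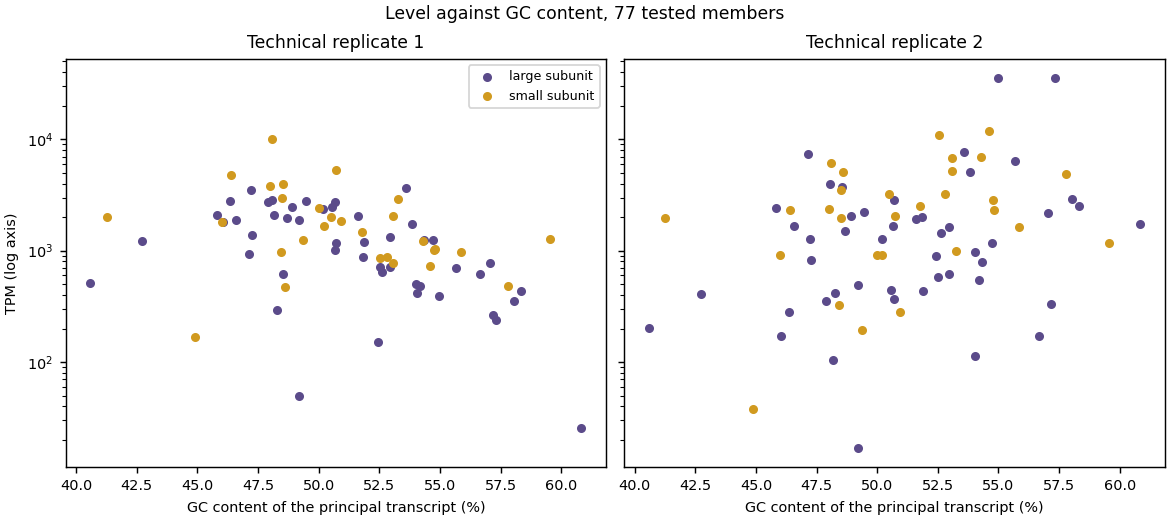
TPM (log axis) against the GC content of the principal transcript in percent for 77 tested members, with replicate 1 on the left, replicate 2 on the right and the subunits in separate colours. Points fall to the right in replicate 1 and rise to the right in replicate 2 (rho over all 79 tested members -0.48 and 0.30).

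The libraries also gave a different transcript for many members. IsoPct is the percent of a gene's TPM that the quantifier gave to 1 transcript, and the dominant transcript is the one with the highest IsoPct. Among 59 tested members with at least 2 transcripts and counts in both libraries, the dominant transcript differed in 23 (15 of 37 large and 8 of 22 small), or 39%, against 42.8% of all genes compared. Transcript types come from GENCODE M21, a later release than the M4 of the files, and were not measured. For Rps20, Rps16 and Rpl27a a transcript of the retained intron class dominated in both libraries.

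Among the retained intron shifts named here, that of Rpl6 reached the highest share in replicate 2. Rpl6-203 went from 13.8% in replicate 1 to 96.8% in replicate 2. It is 565 bases long, of which 370 lie in exons of the principal transcript (its bases 626 to 995 of 1270) and 195 in the intron before them, whose end is printed above. Rpl21-204 went from 0.33% to 88.1%, Rps2-205 from 4% to 75.2% and Rpl5-205 from 4.71% to 69.3%. Rpl36a-206 went from 0.32% to 61.2%, Rps18-210 from 1.36% to 51.4% and Rpl31-204 from 2.46% to 49.4%. In all 8, the transcript had at most 13.8% in replicate 1. Among 44 members with a transcript of that class, the class held at least 50% of the gene in 3 in replicate 1 and in 10 in replicate 2. Its share of the gene was nevertheless lower in replicate 2 in 27 of these 44 and higher in 16, so the class did not gain share in most members. Among all genes with such a transcript, 12.2% reached 50% in replicate 1 and 15.8% in replicate 2.

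Other shifts stayed among transcripts of other classes. Rpl24 went from Rpl24-201 (98.3% and 0.32%) to the processed transcript Rpl24-204 (0.24% and 97.0%), which shares 531 of its 639 bases with Rpl24-201, from base 147 to its end. Rpl19 went from Rpl19-201 (99.04% and 11.2%) to Rpl19-202 (0.60% and 88.8%), also coding, which shares 684 of its 737 bases with Rpl19-201, from base 68 of the latter. Rpl28 went from Rpl28-201 (98.7% and 11.4%) to Rpl28-203 (0% and 88.7%), a coding model of 312 bases. In Rpl7, Rpl7-203, a processed transcript of 421 bases, went from 0.15% to 77.8%. Rpl35 moved the other way, from a processed transcript (85.9% and 0%) to its coding transcript (14.1% and 100%). Rps24 kept coding transcripts in both, with Rps24-201 at 87.5% and 39.2%.

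**Figure D4:**
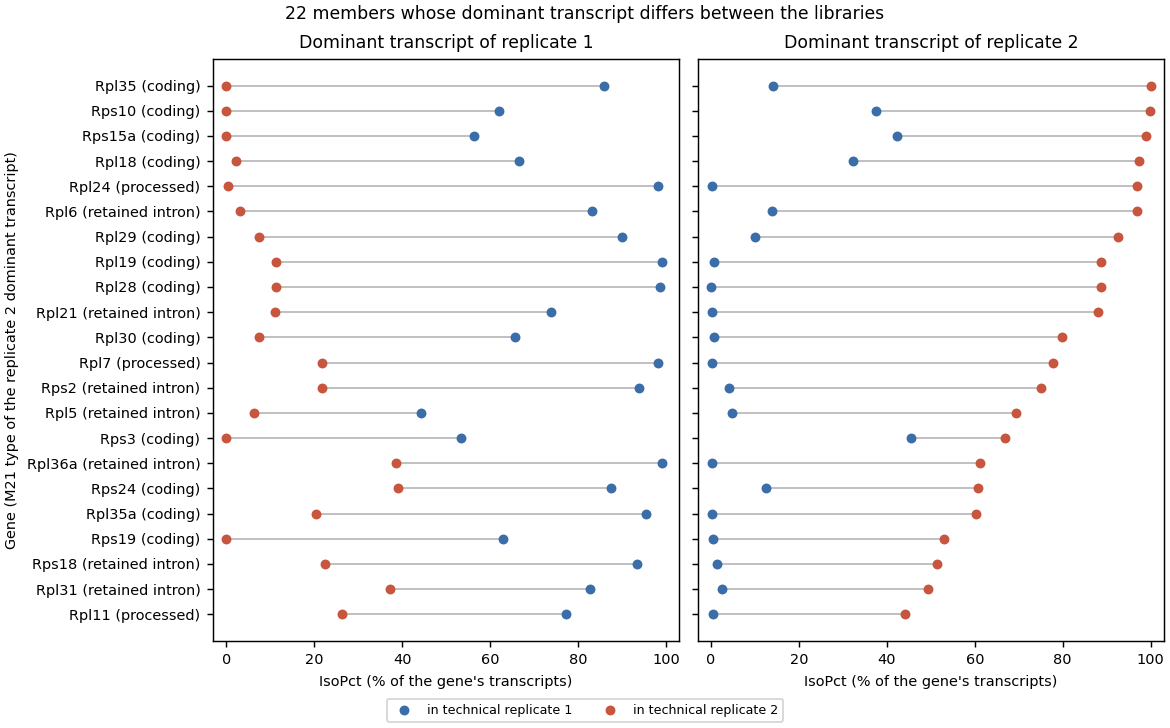
IsoPct in percent of the dominant transcript of replicate 1 (left) and of replicate 2 (right) in each library, for 22 of the 23 members whose dominant transcript differs, with the M21 type of the replicate 2 transcript in brackets. In the right panel most replicate 1 values (blue) lie near 0, Rpl31 among them at 2.46%, and the replicate 2 values (red) reach from 44.1% for Rpl11 to 100% for Rpl35.

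The new dominant transcripts tended to lack the 5′ part of the mRNA. Both dominant transcripts could be placed on the principal coding transcript in 22 of the 23 members. The transcript of replicate 2 started further 3′ than that of replicate 1 in 16 (72.7%), further 5′ in 4 and at the same base in 2. Among 3477 genes compared in the same way 54.5% started further 3′. The median first base over the 22 members was 1 in replicate 1 and 154 in replicate 2. Rpl7 started at base 889 of 1163 in replicate 2 and Rps2 at 876 of 1094, against base 1 for each in replicate 1. The 4 in the other direction were Rpl35, Rps15a, Rps19 and Rps3.

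**Figure D5:**
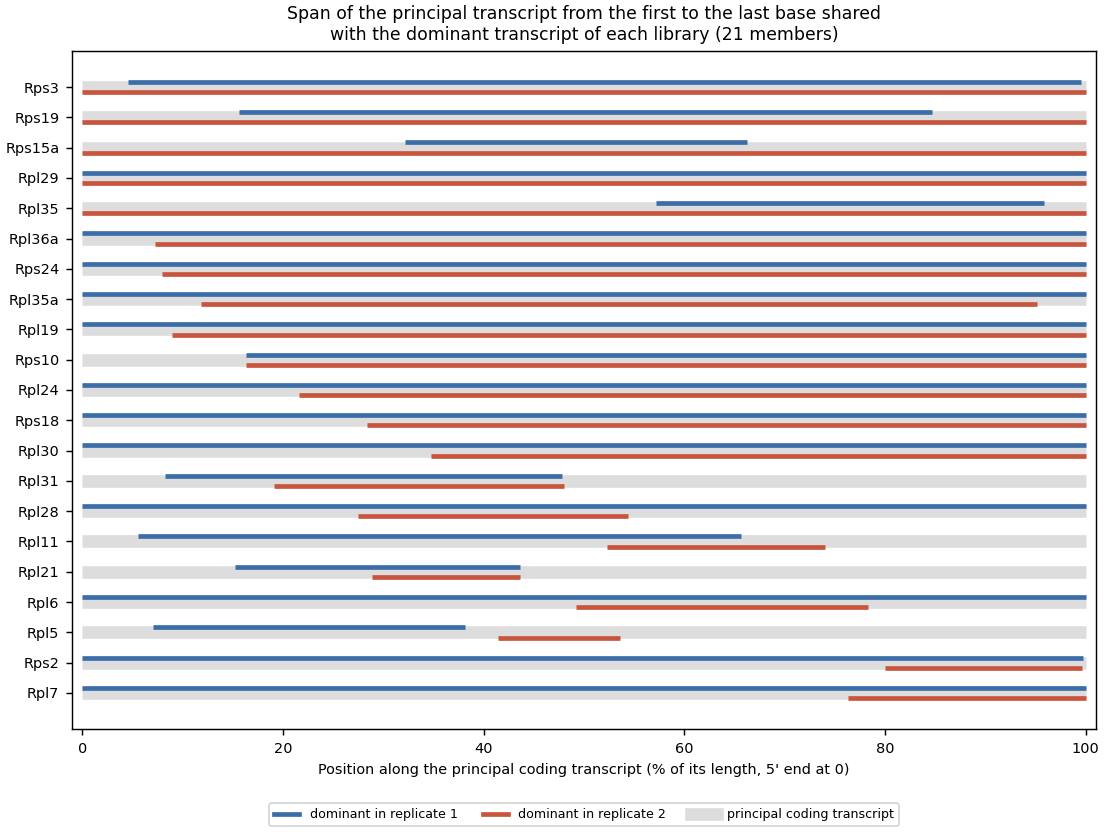
Span along the principal coding transcript (percent of its length, 5′ end at 0) from the first to the last base shared with the dominant transcript of replicate 1 (blue) and of replicate 2 (red), for 21 of the 22 members; the grey bar is the whole principal transcript. In Rpl7 and Rps2 the red bar covers only the 3′ part, and in Rps3, Rps19, Rps15a and Rpl35 it starts further 5′.

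The transcript assigned sets the deposited length of a gene. TPM is divided by the effective length, which is shorter and also depends on the library. The median gap between the 2 lengths was 191.1 bases in replicate 1 and 134.6 in replicate 2. The part of this gap in the TPM ratios was not tested. The deposited gene length of Rpl6 was 1147 bases in replicate 1 and 587.5 in replicate 2. The length in replicate 2 was under 75% of that in replicate 1 in 6 tested members, and within 10% of it in 59. It was longer for Rps24 (514.2 and 692.5 bases) and Rpl36a (484.5 and 684.4 bases), whose log2 ratios under total counts were 1.23 and 1.86 and whose log2 TPM ratios were -0.71 and -0.19. A lower ratio in TPM than in total counts was also seen where the deposited length hardly changed. Rps4x, with lengths of 973.2 and 974.9 bases, had 0.24 under total counts and -1.02 in TPM. The median of members was 1.33 under total counts and -0.03 in TPM. Counting only protein-coding transcripts, 64 members were higher and 7 lower under TMM, against 27.1% and 35.9% of genes so counted. Rpl24 then moved from 3.18 to -4.97, since 4792 of its 4855 counts in replicate 2 lay on Rpl24-204. The summed IsoPct of coding transcripts had a median of 98.4% and 98.5% over 59 members, and of 89.4% and 100% over all genes compared. These medians hide a change in the lower part of the range. The coding share was at least 90% in 46 of the 59 members in replicate 1 and in 32 in replicate 2. It was under 50% in 8 and in 16. Transcripts with no M21 type count here as not coding. They held 95.3% and 98.8% of Rpl13a and 67.8% and 2.55% of Rpl18, so part of the share outside coding is missing annotation. Of the summed TPM of members, coding transcripts held 88.2% and 83.0%. The same counts were not made for all genes.

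Reads shared with copies and neighbours limit single members. Pseudogenes were tallied by a symbol made of a member symbol and the ending -ps. Copies under other names are not in the tally, so it does not bound the shared reads. The deposited tables list 246 pseudogenes so named after 55 members. They held 2.06% of the members' counts in replicate 1 and 1.60% in replicate 2. The 4 pseudogenes so named after Rpl19 held 517.1 and 5070 counts. In replicate 2 this was more than the 4142 of Rpl19 itself, so the level of Rpl19 is uncertain. Those of Rps6 held 5129 and 7.73 counts, beside 31799 and 4027 in Rps6. Exons of 21 members overlap an exon of another gene, in 18 on the opposite strand, and the sources used here do not state whether counting used strand. Without these 21 members, 50 of 58 were higher and 2 lower. The deposited posterior SD of the count was at most 4.18% of it in replicate 1 and 2.84% in replicate 2.

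Other genes of the pathway are given beside the 28% higher and 32.6% lower of all tested genes under TMM. Of 5 ribosome genes outside the naming rule all were higher under TMM, Rpsa (809.7 and 4578 TPM), Fau (693.3 and 4657), Rack1 (1097 and 7572) and Rpl36al (577.5 and 1543) under every scaling. Of 77 mitochondrial ribosomal protein genes 52 were higher by TMM and 4 lower (median 1.63), and 27 and 4 under every scaling. Mrpl14 was at 10.7 and 76.5 TPM, and Mrpl3 at 55.1 and 0.86. Of 34 ribosome assembly factors 12 were higher and 7 lower (median 0.34), not far from the shares of all tested genes. Nhp2, of the H/ACA particle, was at 19.9 and 187.8 TPM, and Heatr1 at 28.7 and 0.11 TPM, each in 1 direction under every scaling. Of 12 genes of RNA polymerase I, which makes the rRNA precursor, 3 were higher and 3 lower (median 0.23), which is near those shares too. Of 13 other mRNAs with a terminal oligopyrimidine tract 5 were higher and 3 lower under TMM (median 0.63), and 0 and 3 under every scaling, and Eef1a1, an elongation factor, went from 10111 to 723.3 TPM. Of 9 regulators of ribosome production 2 were higher and 4 lower (median -0.52), with Myc at 26.4 and 1.15 TPM and lower under every scaling.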

How the data were processed

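The authors used mouse genome mm10 and GENCODE M4, per the deposited notes and the file headers. Names of an aligner or quantifier are not given in the sources used here. The deposited tables give an expected count per gene and transcript (rounded here), the authors' TPM, IsoPct as a deposited percent of a gene's TPM, and lengths, effective lengths and posterior SDs, an other measure. FPKM values were not used. Symbols, types, GC content and structures came from GENCODE M21 on the same genome, where 101510 of 103639 transcripts matched by identifier. Rows with no Ensembl identifier held 1.09e-05% and 2.10e-04% of counts and stayed out.

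Genes needed a mean TPM of at least 1 and 50 counts in all. Library sizes were scaled with TMM (edgeR 4.0.16, R 4.3.3). Each log2 ratio has a 95% interval (exact, Clopper-Pearson) given the summed count of the gene, for counting error only. A gene was called when the interval lay beyond 1.5-fold, and a count of 0 was set to 3 counts per library. With 1 library on each side every call compares these libraries. The rule was run on simulated counts that held counting error only, which is the error the interval assumes. That run therefore cannot show how the rule fares with other differences between libraries. The GC trend was a lowess fit (statsmodels 0.14.6). DESeq2 1.42.0 and total count scaling, TPM ratios, filters and thresholds were alternatives. The joint call over all scalings, GC removal, coding transcripts alone and the set without overlapping exons were added after seeing the data.

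The members and lists were chosen with earlier results of these data known. Named members were those of the stalk, the 5S particle, the mRNA channel and the tunnel exit, Rps6, Rps19, Rpl22, Rpl38 and Rpl41, paralog symbols, the 5 highest levels per subunit, the 6 highest and 6 lowest ratios and the 6 largest IsoPct shifts. Others, such as Rpl7, Rpl36a, Rps3a1 and Rps27, were named after their values were seen, and so were the genes named from other lists. Some genes and sequences are not reported by name here and are left out of the figures, though they stay in counts and sums. Figures used matplotlib 3.10.9 in Python 3.11.15.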

Additional observations from a re-analysis of the deposited data

Results flagged for a closer look

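5 genes matched the naming rule but are classed as pseudogenes in GENCODE M21, so they entered no count above, and 4 of them held more than the 3 counts that a count of 0 allows. Rps3a2 had an expected count of 451.2 in replicate 1 and 9.06 in replicate 2. Rpl6l had 47.17 in replicate 1. Rps3a3 had 16.32 and 13.7, and Rps4l had 5 and 66. Reads of Rps3a1, Rpl6 and Rps4x can be shared with these copies.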

How the results depend on the processing

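Of 79 tested members, 68 were higher and 3 lower under TMM. Total counts gave 10 lower, a TPM ratio 32 higher and 31 lower, a 2-fold threshold 1 lower, the call under every scaling 38 higher, removal of the GC trend 1 lower and coding transcripts alone 7 lower. The median log2 ratio was 2.72 with DESeq2 size factors, 1.33 with total counts, -0.033 in TPM, 2.32 without a filter, 2.52 from a mean of 10 TPM and 2.48 for coding transcripts. The large over small ratio of summed TPM in replicate 1 was 0.922 from medians, 1.002 without the P proteins, 1.249 without the 5 highest members, 1.256 in counts and 0.9905 with ribosome genes from outside the naming rule added. In replicate 2 these were 0.549, 0.721, 1.01, 1.409 and 1.217. The SD of log2 TPM was 2.764 and 3.091 with a pseudocount of 0.1, 1.302 and 1.781 without paralog symbols, and 1.421 and 1.998 from a mean of 10 TPM. The rank correlation of members without paralog symbols was -0.0446. Among coding transcripts alone the dominant one differed in 10 of 38 members. The cause of these differences was not tested.

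Several directions turned with the scale. With total counts the log2 ratio was -0.16 for Rpl11, -0.18 for Rpl17, -0.017 for Rpl22l1, -0.60 for Rpl5, -0.38 for Rpl7l1, -0.15 for Rps3, -0.13 for Rps6 and -0.72 for Rps27l, which was not called under TMM. In TPM it was -1.11 for Rpl11, -0.099 for Rpl12, -1.47 for Rpl17, -0.084 for Rpl19, -0.75 for Rpl22, -1.34 for Rpl22l1, -0.31 for Rpl23a, -0.89 for Rpl26, -1.84 for Rpl35, -0.37 for Rpl39, -1.58 for Rpl5, -1.51 for Rpl7l1, -0.14 for Rps19, -0.71 for Rps24, -2.11 for Rps27l, -1.57 for Rps3, -1.02 for Rps4x and -1.39 for Rps6. No paired analysis was possible because each side has 1 library, and no replicate could be left out for the same reason.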

Other observations

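On the same strand and within the bounds of 29 tested members lie 55 small nucleolar RNA genes, which guide the modification of rRNA. Whether each lies in an intron was not checked. Of these 29 host genes 23 were higher by TMM and 2 lower (median log2 ratio 2.23), and of the other 50 members 45 were higher and 1 lower, with a median of 2.70. Whether hosts and other members differ was not tested. The small nucleolar RNA genes themselves held 5.98 expected counts in replicate 1 and 4.84 in replicate 2 in all.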
